A study of Mus musculus with 14 samples.

Results

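Stromal cells and luminal epithelial cells sorted from the prostates of C57BL/6 mice aged 3 months were compared across all genes by RNA sequencing. The comparison took 7 of the 14 libraries of the series: 3 of stromal cells, 2 of luminal cells positive for Trop2 and 2 of luminal cells negative for it. Trop2 is a surface glycoprotein of epithelial cells. The other 7 libraries held the same sorts from C57BL/6 mice aged 24 months, and were used only to ask whether the difference between stroma and luminal cells changed with age. For every group the labels give the strain, the age and the sorted cell type, and name no genetic change and no treatment. The labels call the stromal libraries biological triplicates and the luminal libraries duplicates. The number of mice behind each library and the surface proteins of the gates besides Trop2 are not given in the sources used here. The p-values measure the spread between these libraries.

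The prostate is a branched gland. Luminal cells line its ducts, depend on androgen and secrete the proteins of the seminal fluid, while the stroma around the ducts holds fibroblasts, which build the extracellular matrix, and smooth muscle, which expels the secretion. During development androgen acts on the mesenchyme, and the mesenchyme instructs the epithelium through secreted growth factors. In the adult gland ligands made on one side of the basement membrane still meet receptors on the other side.

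Total expected counts of the 7 libraries ranged from 6099426 to 8926611. Levels are CPM, counts scaled for depth with TMM factors, in the order of library 1, 2 and 3 (stroma) or 1 and 2 (luminal), and a floor of 3 counts came to between 0.326 and 0.525 CPM. A log2 difference is the log2 of the fitted stromal mean minus the average log2 of both luminal sort means, given ± SE. Each sort was weighted equally on the log2 scale, so where the sorts differ the difference can depart from the ratio of mean CPM. The SE was derived from the test named next, as the absolute log2 difference over the square root of its F, and is unstable near 0 counts. Each gene was tested with the quasi-likelihood F test of edgeR, p-values were adjusted over all 14524 genes tested by the Benjamini-Hochberg method, and higher, lower or called below refers to an adjusted p under 0.05. Of these genes 4794 were higher in stroma (33%) and 4014 lower (27.6%). When the difference itself had to exceed 2-fold (edgeR's glmTreat), 2826 were higher (19.5%) and 1629 lower (11.2%). The values of the 3 stromal libraries lay above all 4 luminal values for 4665 genes (32.1%) and below all of them for 3823 (26.3%). The median log2 difference was 0.09. These shares are the background against which each gene list below is read. The lists were chosen with results of these data known, and their counts describe them without a test of the list.

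Trop2-negative library 2 stood apart by transcripts of the seminal vesicle, the gland next to the prostate. Svs1 stood at 125 CPM there and at 0 to 0.7204 CPM in the other 6 young libraries, and Svs6 at 111 CPM against 13.2 CPM in Trop2-negative library 1 (its lower level in stroma was not called without Trop2-positive library 1 or without Trop2-positive library 2, adjusted p up to 0.082). Without this library 8274 genes were called, 4617 higher and 3657 lower in stroma, against 8808 with it. The 10 most abundant genes held 44.4% and 46.3% of all TPM (a level corrected for transcript length) in the Trop2-negative libraries and 20.7% to 27.6% in the other 5. A set of features such as the ribosomal precursor Rn45s took 9.35% to 10.7% of the counts in stroma and 12.6% to 17.1% in luminal cells. The set, called structural RNAs below, also held the long noncoding RNA Malat1 and the protein-coding gene Lars2.

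The labels of the sorts matched their markers. Dcn encodes decorin, a proteoglycan of the fibroblast matrix, on chromosome 10 from 97479609 to 97518143 (GRCm38, plus strand). It stood at 3686, 3829 and 3907 CPM in stroma, 12.8 and 24.3 CPM in Trop2-positive and 40.8 and 22.7 CPM in Trop2-negative cells. All 3 stromal values lay above all luminal values, with a log2 difference of 7.29 ± 0.27, about 157-fold (adjusted p = 6.31e-09). Col1a1, the alpha 1 chain of collagen I, stood at 4675, 4029.7 and 5239.7 CPM in stroma, 10.9 and 7.54 CPM in Trop2-positive and 40.6 and 18.02 CPM in Trop2-negative cells. Its log2 difference of 8.13 ± 0.30 was of like size. Acta2, the actin of smooth muscle, stood at 295, 284 and 739 CPM in stroma, 1.1997 and 0.923 CPM in Trop2-positive and 1.48 and 0.6997 CPM in Trop2-negative cells. Stromal library 3 held more than 2 times the level of the other stromal libraries, and the groups did not overlap (log2 difference 8.62 ± 0.50). Krt8, a keratin of luminal cells, went the other way, at 10.2, 30.1 and 31.2 CPM in stroma, 5791 and 4587 CPM in Trop2-positive and 2765 and 3255 CPM in Trop2-negative cells. Its lowest luminal value lay far above the highest stromal one (log2 difference -7.39 ± 0.41, adjusted p = 1.21e-07).

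**Figure D1:**
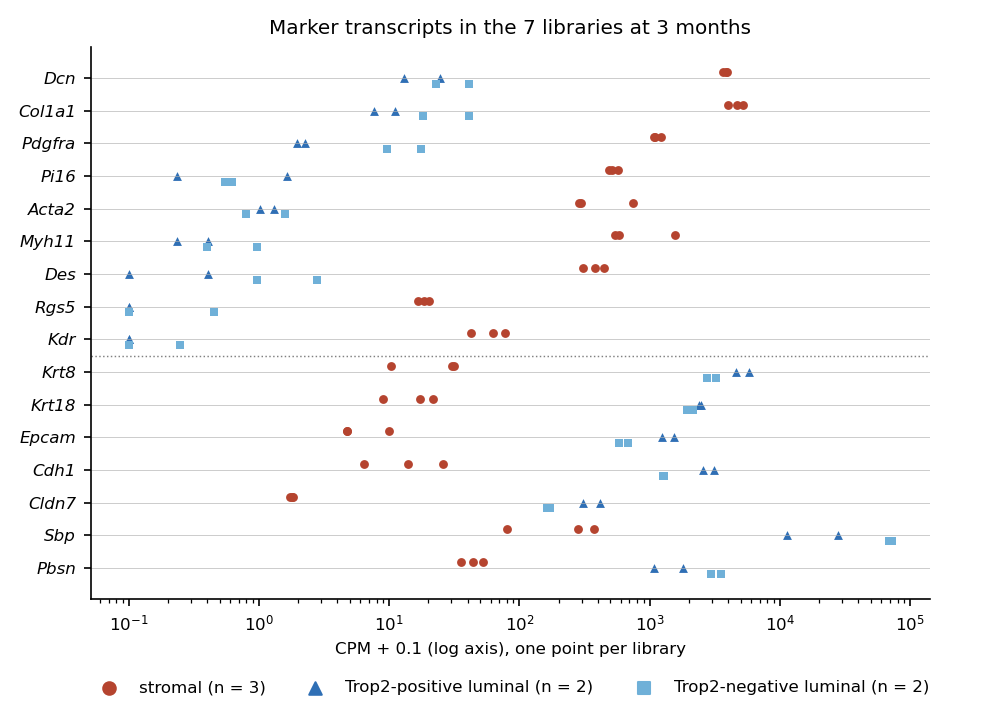
Levels of 16 marker genes in the 7 young libraries, 1 point per library, on a log axis of CPM + 0.1; the dotted line parts stromal from epithelial markers. Stromal libraries (circles) and luminal libraries (triangles and squares) do not overlap for any gene shown, and Acta2 and Myh11 are highest in stromal library 3.

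A little RNA of each side appeared on the other. In the stromal libraries Krt8 stood at 0.249%, 0.735% and 0.760% of its luminal mean, and Sbp, the spermine-binding secretory protein, at 0.177%, 0.623% and 0.836%. Other secretory transcripts stood higher than that, Tgm4 (the transglutaminase of the seminal clot) at 1.72% to 3.23% and Pbsn (probasin) at 1.53% to 2.24%. In the luminal libraries Dcn stood at 0.336% to 1.07% of its stromal mean and Col3a1 at 0.0404% to 0.377%, with Trop2-negative library 1 highest for both. The part of this RNA in any single difference was not tested.

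All 12 fibroblast genes and all 12 smooth muscle genes were higher in stroma, with median log2 differences of 8.24 and 6.97. Pdgfra, the PDGF receptor of fibroblasts, stood at 1083, 1225 and 1108 CPM in stroma, 1.87 and 2.15 CPM in Trop2-positive and 17.4 and 9.45 CPM in Trop2-negative cells. Pi16, a marker of adventitial fibroblasts, stood at 486, 573 and 512 CPM in stroma and 0.133 to 1.54 CPM in the luminal libraries. Myh11, the smooth muscle myosin, stood at 540.1, 579.8 and 1553 CPM in stroma and 0.133 to 0.875 CPM in the luminal libraries. Of the 8 pericyte genes tested 7 were higher, including Rgs5 at 19.98, 16.4 and 18.3 CPM in stroma and 0 to 0.35 CPM in luminal cells, while Higd1b was not called (log2 difference 2.01 ± 1.34, adjusted p = 0.22). The summed level of the 12 fibroblast genes was 39840, 43160 and 46320 CPM in the stromal libraries and 288.1 to 409 CPM in the luminal ones. The summed level of the 12 smooth muscle genes was 2150, 2298 and 4580 CPM in stroma and 30.55 to 36.39 CPM in luminal cells, so of these 2 sums the muscle one stood apart in stromal library 3. In bulk libraries fewer cells of a type and less RNA per cell cannot be told apart.

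The stromal libraries held transcripts of vessels, nerve and red cells but almost none of leukocytes. All 6 tested genes of blood endothelium were higher, among them Kdr, the main VEGF receptor, at 42.6, 62.1 and 77.98 CPM in stroma and 0 to 0.148 CPM in the luminal libraries. The 10 genes of that list summed to 214.2, 239.5 and 244.4 CPM in stroma and 6.265 to 11.12 CPM in luminal cells. All 3 tested genes of lymphatic endothelium were higher too. Their list summed to 239.8, 296.8 and 329.4 CPM in stroma and 1.225 to 4.665 CPM in luminal cells. Some vessel genes were sparse. Pecam1 stood at 10.97, 9.51 and 4.51 CPM in stroma and 0 to 3.85 CPM in luminal cells, and its call (adjusted p = 0.043) was lost without any 1 stromal library or without Trop2-negative library 2 (adjusted p up to 0.16). Vwf did not exceed 1.297 CPM there (2.53 CPM in luminal cells) and Cldn5 0.288 CPM. Of the 6 Schwann cell and neuron genes tested 5 were higher, among them the nerve growth factor receptor gene Ngfr at 40.5, 25.5 and 22.7 CPM in stroma and 0.267 to 1.54 CPM in the luminal libraries. The alpha globin gene Hba-a1 stood at 363, 221 and 295 CPM in stroma and at 0 to 0.175 CPM in luminal cells. None of 5 pan-leukocyte genes and none of 5 B cell genes was abundant enough to be tested, and Ptprc, which encodes CD45, did not exceed 0.564 CPM in stroma or 0.593 CPM in luminal cells. The summed level of 9 macrophage genes was 15.8 to 20.1 CPM in stroma and 13.8 to 39.9 CPM in luminal cells. Wt1, otherwise known from mesothelium and urogenital mesenchyme, stood at 124, 176 and 177 CPM in stroma with 1 count in all luminal libraries, and the mesothelial genes Msln and Upk3b did not exceed 0.977 CPM in stroma.

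Nearly all genes of the extracellular matrix were higher in stroma. Of 10 fibrillar collagen genes tested 9 were higher (median log2 difference 8.07), of 11 basement membrane collagens and nidogens 11, of 11 small leucine-rich proteoglycans 11, of 14 elastic fibre genes 14 and of 16 matricellular genes 15. Col3a1 (collagen III) stood at 6393, 5452 and 6941 CPM in stroma, 2.53 and 5.69 CPM in Trop2-positive and 23.6 and 7.697 CPM in Trop2-negative cells. The stromal values lay far above the luminal ones, with a log2 difference of 9.61 ± 0.39 (adjusted p = 1.36e-08). Fbn1, the fibrillin of microfibrils, stood at 2073, 2370.3 and 2315 CPM in stroma and 1.08 to 10.7 CPM in the luminal libraries, and Eln (elastin) at 419, 477 and 582 CPM in stroma and 0 to 4.75 CPM in the luminal libraries. Col11a2 was the fibrillar collagen that was not called, at 10.9, 12.4 and 8.32 CPM in stroma, 8.53 and 8.77 CPM in Trop2-positive and 9.79 and 4.898 CPM in Trop2-negative cells. Among matricellular genes Postn (periostin), which binds collagen, stood first among the largest increases: 206, 213 and 201 CPM in stroma and no count in any luminal library, at least 451-fold higher against a floor of 3 counts per library. Cyr61, an early response gene on the same matricellular list, stood at 594, 517 and 628 CPM in stroma, 811 and 629 CPM in Trop2-positive and 468 and 506 CPM in Trop2-negative cells and was not called.

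Enzymes that fold, trim and crosslink collagen went with it. Of 15 such genes 14 were higher, among them Lox (lysyl oxidase) at 529, 611 and 733 CPM in stroma and 0.462 to 6.08 CPM in the luminal libraries and Serpinh1, the collagen chaperone, at 1109, 1205 and 935 CPM in stroma and 3.73 to 17.1 CPM in the luminal libraries. Pcolce2, which enhances procollagen processing, stood at 50.8, 48.4 and 35.7 CPM in stroma and had no luminal count, at least 98.2-fold higher. Of 15 matrix protease genes tested 13 were higher and 2 lower. Mmp2 (gelatinase A) stood at 896, 807 and 951 CPM in stroma and 0.154 to 8.45 CPM in the luminal libraries, Adamts12 at 58.5, 51.1 and 56.5 CPM with no luminal count (at least 121-fold) and Adamts3, the N-proteinase of fibrillar procollagens, at 55.9, 74.2 and 77.3 CPM with no luminal count (at least 151-fold). The 2 that were lower in stroma were Mmp7 and Mmp15: Mmp7 (matrilysin), known from glandular epithelium, stood at 1.95, 2.59 and 2.26 CPM in stroma, 113 and 132 CPM in Trop2-positive and 74.9 and 136 CPM in Trop2-negative cells, and the membrane-bound Mmp15 at 3.91, 3.46 and 3.67 CPM in stroma, 318 and 256 CPM in Trop2-positive and 145 and 150.3 CPM in Trop2-negative cells. Inhibitors followed a like split, with Timp2 and Timp3 higher and Timp4 lower in stroma (0.651, 1.01 and 1.97 CPM against 34.8 to 54.6 CPM in luminal libraries).

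Genes of the basement membrane were found on both sides. Of 11 laminin genes tested 7 were higher in stroma, 2 were lower and 2 were not called. Lama2, the alpha 2 chain of mesenchymal laminins, stood at 1492, 1513 and 1628 CPM in stroma, 0.3999 and 1.08 CPM in Trop2-positive and 19.1 and 4.72 CPM in Trop2-negative cells. Lama5, the main alpha chain under adult epithelium, stood at 40.6, 40.6 and 75.7 CPM in stroma, 1043 and 637 CPM in Trop2-positive and 342 and 399 CPM in Trop2-negative cells. It was lower in stroma (log2 difference -3.42 ± 0.27). Lamb3 and Lama3 were not called. The collagen IV chains Col4a1 (1423, 2004 and 1638 CPM in stroma and 12.1 to 24.7 CPM in the luminal libraries) and Col4a3 (190.1, 168 and 229 CPM in stroma and 1.22 to 6.13 CPM in the luminal libraries) were higher in stroma, as was the linker gene Nid1 (1463, 1569 and 1409 CPM in stroma and 0.3999 to 9.19 CPM in the luminal libraries).

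Integrins, the receptors for these proteins, went both ways. Of 18 genes tested 12 were higher in stroma and 5 lower, the latter near the 27.6% over all genes tested. The fibronectin receptor chain gene Itga5 stood at 552, 764 and 775 CPM in stroma, 5.33 and 2.15 CPM in Trop2-positive and 6.38 and 1.22 CPM in Trop2-negative cells. The laminin receptor chain gene Itga6 stood at 1.09, 4.47 and 5.36 CPM in stroma, 314 and 259 CPM in Trop2-positive and 188 and 185 CPM in Trop2-negative cells and its partner Itgb4 at 4.45, 5.76 and 2.26 CPM in stroma, 366 and 256 CPM in Trop2-positive and 85.4 and 90.3 CPM in Trop2-negative cells. Itga3 (laminin) and Itgb6 (an activator of latent TGF-beta) were also lower in stroma (log2 differences -3.85 ± 0.20 and -4.69 ± 0.34). Itgav, the shared chain of RGD-binding integrins, stood at 289, 339 and 366 CPM in stroma, 475 and 415 CPM in Trop2-positive and 215 and 192 CPM in Trop2-negative cells and was not called.

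Among the 12 largest increases taken by the naming rule, apart from those given above, were C7, Gdf10, Dpt, C1qtnf3, Cacna1h, Dpep1 and Plac9b. C7, a terminal complement component, stood at 702, 1003 and 862 CPM in stroma and 0.133 to 0.525 CPM in the luminal libraries. Dpt (dermatopontin), a collagen-binding matrix protein, stood at 527, 672 and 601 CPM in stroma and 0 to 0.445 CPM in the luminal libraries. C1qtnf3, a secreted C1q-like protein, stood at 57.9, 61.7 and 109.6 CPM and had no luminal count (at least 167-fold), and Cacna1h, a T-type calcium channel, at 43.2, 50.1 and 56.97 CPM with none (at least 109-fold). Dpep1 (a renal dipeptidase) stood at 193, 277 and 179.9 CPM with 3 luminal counts in all. Plac9b stood at 243, 255 and 277 CPM in stroma and 0 to 0.6997 CPM in the luminal libraries. Reads of some of the genes named here can fall to near-identical copies: 96.6% of the 50-base windows of Plac9b, 72.3% of those of Hba-a1, 48.9% of those of Cyp4a12a and 45.7% of those of Krt6a occur in another gene, so their levels are uncertain. Smaller shares applied to other named genes, among them Krt8 (26.9%), Mug1 (26.5%), Sbp (20.5%), Rmnd1 (20.2%), Pcna (19.1%) and Ly6a (19%). In TPM, which allows genes to be compared, the most abundant protein-coding stromal transcript was Gsn (gelsolin, an actin-severing protein), at a mean of 17375 TPM in stroma and 179.9 TPM in luminal cells.

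**Figure D2:**
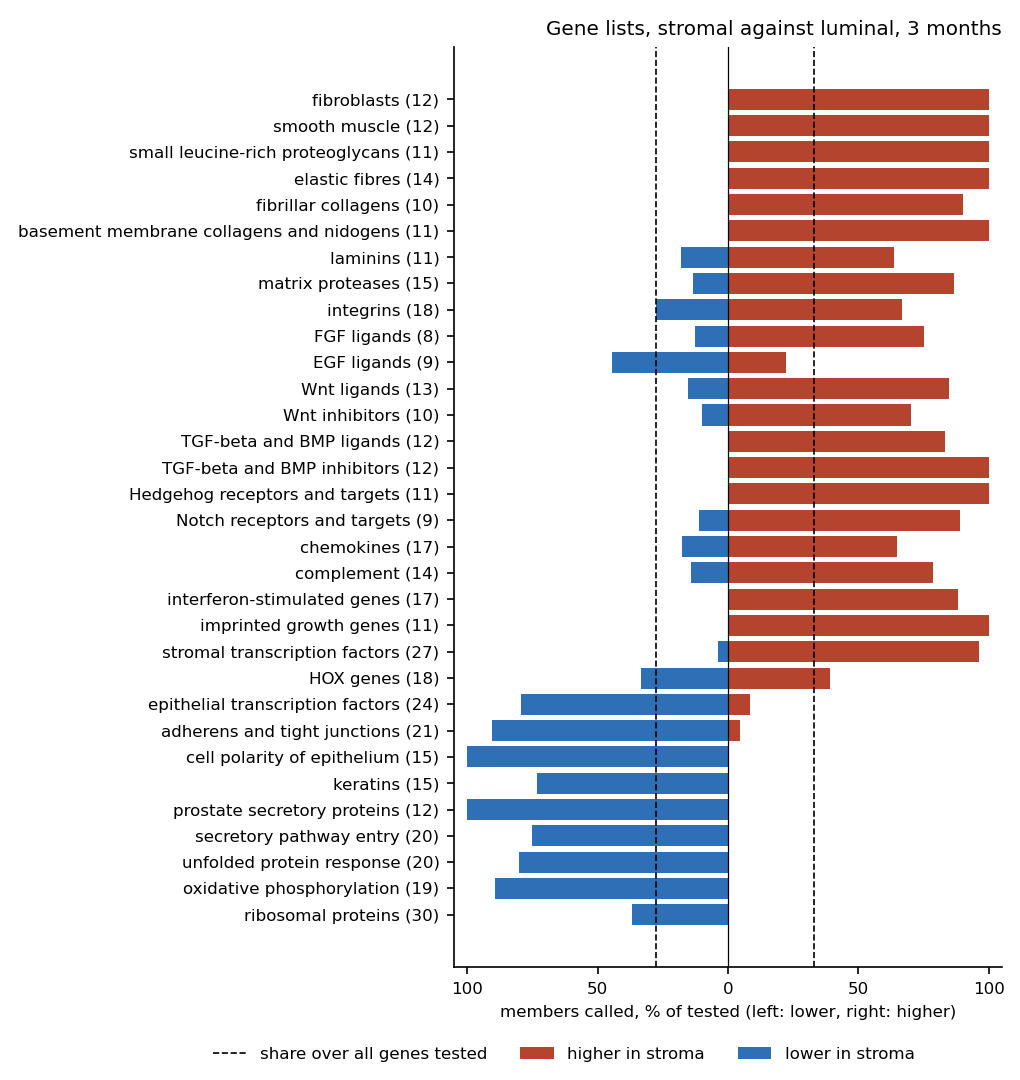
Percentage of tested members called higher (right) or lower (left) in stroma for 32 gene lists, with the number tested in brackets; dashed lines mark the shares over all genes tested (33% and 27.6%). Elastic fibre, smooth muscle and Hedgehog response lists reach the right edge, while polarity and secretory protein lists reach the left edge.

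Ligands and receptors of the FGF family were mainly higher in stroma. Of 8 FGF ligand genes tested 6 were higher and 1 lower, and of 5 receptor genes 4 were higher and 1 lower. Fgf10 and Fgf7, mesenchymal ligands of the epithelial form of FGF receptor 2, stood at 84.3, 82.99 and 72.8 CPM in stroma, 9.73 and 1.69 CPM in Trop2-positive and 1.93 and 1.22 CPM in Trop2-negative cells for Fgf10 and at 33.1, 37.9 and 42.4 CPM in stroma, 8.398 and 1.69 CPM in Trop2-positive and 1.93 and 3.15 CPM in Trop2-negative cells for Fgf7. The stromal values lay above all luminal values, though Trop2-positive library 1 held several times the level of the other luminal libraries for both. Fgf2 stood at 14.01, 22.3 and 16.4 CPM in stroma and 0 to 0.154 CPM in the luminal libraries and Fgf18 at 19.2, 16.7 and 22.3 CPM in stroma and 0 to 0.445 CPM in the luminal libraries. Fgf1 was the ligand that was lower in stroma, at 36.4, 35.7 and 55.1 CPM in stroma, 104 and 112 CPM in Trop2-positive and 151 and 124 CPM in Trop2-negative cells. Of the receptors, Fgfr1 stood at 765, 805 and 735 CPM in stroma, 34.8 and 26.5 CPM in Trop2-positive and 86.3 and 73.8 CPM in Trop2-negative cells, and Fgfr2 at 30.9, 39.05 and 49.1 CPM in stroma, 163 and 133 CPM in Trop2-positive and 63.2 and 69.3 CPM in Trop2-negative cells. Fgfr2 was the receptor gene that was lower in stroma (log2 difference -1.32 ± 0.16, adjusted p = 4.30e-05) and highest in the Trop2-positive libraries.

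Ligands of the IGF, HGF and stem cell factor pathways were higher in stroma, and the receptors of the same pathways lower. Igf1, the growth factor gene, stood at 728, 889.8 and 749 CPM in stroma, 0.3999 and 0 CPM in Trop2-positive and 1.19 and 1.57 CPM in Trop2-negative cells. Its receptor gene Igf1r stood at 182, 168 and 170.5 CPM in stroma, 199 and 191 CPM in Trop2-positive and 281 and 248 CPM in Trop2-negative cells, slightly lower in stroma (log2 difference -0.39 ± 0.10, adjusted p = 0.006), a call lost with limma on TPM and with the luminal libraries as 1 group. Of the 12 IGF system genes 10 were higher, including the binding protein genes Igfbp4 (837, 1003 and 806 CPM in stroma and 0.267 to 3.26 CPM in the luminal libraries) and Igfbp5 (2614, 2661 and 2789 CPM in stroma and 121 to 249 CPM in the luminal libraries). Hgf, the ligand of Met, stood at 21.5, 23.9 and 37.1 CPM in stroma and 0 to 0.175 CPM in the luminal libraries, while Met stood at 5.54, 6.92 and 4.23 CPM in stroma, 198 and 137 CPM in Trop2-positive and 94.5 and 88.3 CPM in Trop2-negative cells. Kitl (stem cell factor) stood at 64.6, 60.2 and 80.5 CPM in stroma, 20.7 and 33.1 CPM in Trop2-positive and 21.8 and 15.4 CPM in Trop2-negative cells and its receptor gene Kit at 2.39, 2.59 and 2.54 CPM in stroma, 27.5 and 26.8 CPM in Trop2-positive and 88.98 and 91.8 CPM in Trop2-negative cells. For both pairs the ligand was higher and the receptor lower in stroma. PDGF ran the other way for 1 ligand: Pdgfa stood at 6.298, 6.34 and 7.897 CPM in stroma, 17.1 and 18.3 CPM in Trop2-positive and 6.08 and 10.8 CPM in Trop2-negative cells. It was called lower in stroma (log2 difference -0.83 ± 0.27, adjusted p = 0.019) although Trop2-negative library 1 lay below the stromal values, and the call was lost without stromal library 1 or 2 or Trop2-negative library 2 (adjusted p up to 0.079). In contrast, Pdgfra and Pdgfrb (the latter at 202, 245 and 254 CPM in stroma and 0 to 3.56 CPM in the luminal libraries) were higher in stroma. Figf (also called Vegfd) had 27.7, 31.7 and 20.3 CPM in stroma and no luminal count, at least 58.02-fold higher, and Vegfa stood at 268, 311 and 267 CPM in stroma and 49.5 to 64.1 CPM in the luminal libraries.

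EGF family ligands and receptors went both ways. Of 9 ligand genes tested 4 were lower in stroma, 2 were higher and 3 were not called, and of 4 receptor genes 3 were lower and 1 higher. The shares over all genes tested were 27.6% lower and 33% higher. Egf stood at 3.26, 4.47 and 4.79 CPM in stroma, 342 and 313 CPM in Trop2-positive and 317 and 421 CPM in Trop2-negative cells, and Hbegf at 40.6, 51.3 and 56.8 CPM in stroma, 594 and 505 CPM in Trop2-positive and 216 and 234 CPM in Trop2-negative cells. Areg (amphiregulin) was called lower, yet its levels were 2.497, 3.602 and 5.499 CPM in stroma, 41.5 and 32.9 CPM in Trop2-positive and 1.33 and 1.399 CPM in Trop2-negative cells, so that only the Trop2-positive libraries exceeded stroma. Its call was lost in 5 of 7 fits that left out 1 library (adjusted p up to 0.11), those without stromal library 1 or 2, either Trop2-negative library or Trop2-positive library 1. Nrg2 (a neuregulin) stood at 31.7, 26.7 and 30.04 CPM in stroma and 0 to 0.533 CPM in the luminal libraries and was higher in stroma. The receptor genes Erbb2, Erbb3 and Erbb4 were lower in stroma, Erbb3 at 3.8004, 3.03 and 2.12 CPM in stroma, 238 and 208 CPM in Trop2-positive and 188 and 191 CPM in Trop2-negative cells and Erbb4 at 0, 0.144 and 0 CPM (1 count in all) against 20.6 to 24.4 CPM. Egfr was the receptor gene that was higher in stroma, at 334, 406 and 325 CPM in stroma, 68.5 and 45.5 CPM in Trop2-positive and 13.2 and 18.7 CPM in Trop2-negative cells.

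Wnt ligands were divided by member. Of 13 ligand genes tested 11 were higher in stroma, and Wnt4 and Wnt7b were lower. Wnt2 stood at 72.5, 75.4 and 84.6 CPM in stroma and 0 to 2.799 CPM in the luminal libraries, Wnt5a at 36.2, 27.95 and 39.5 CPM in stroma and 1.07 to 3.11 CPM in the luminal libraries and Rspo3, which amplifies Wnt signals through LGR receptors, at 56.1, 54.5 and 80.1 CPM in stroma and 0 to 0.297 CPM in the luminal libraries. Wnt10a had 13.1, 14.3 and 14.1 CPM in stroma and no luminal count, at least 30.2-fold higher. Wnt7b stood at 0.651, 1.01 and 0.423 CPM in stroma, 54.8 and 56.01 CPM in Trop2-positive and 20.3 and 21.3 CPM in Trop2-negative cells, and Wnt4 at 15.6, 18.4 and 20.6 CPM in stroma, 75.2 and 69.9 CPM in Trop2-positive and 39.7 and 36.04 CPM in Trop2-negative cells. Secreted inhibitors were stromal as well: of 10 genes tested 7 were higher, among them Wif1 at 352, 386 and 450.3 CPM in stroma, 0.133 and 0 CPM in Trop2-positive and 12.01 and 0.3499 CPM in Trop2-negative cells and Sfrp2 at 139, 136 and 161 CPM in stroma and 0 to 0.742 CPM in the luminal libraries. Trop2-negative library 1 alone held 12 CPM of Wif1 among the luminal libraries. Rnf43, a ligase that removes Frizzled receptors, was lower, at 4.13, 3.602 and 3.67 CPM in stroma, 22.5 and 21.1 CPM in Trop2-positive and 29.5 and 25.9 CPM in Trop2-negative cells. Among 16 receptor genes tested, Fzd1 (317, 335 and 332 CPM in stroma and 5.85 to 11.6 CPM in the luminal libraries) and Lgr5 (58.96, 73.5 and 81.4 CPM in stroma and 1.19 to 3.499 CPM in the luminal libraries) were among 11 that were higher, and Fzd6 (1.09, 1.01 and 2.12 CPM in stroma, 35.6 and 59.1 CPM in Trop2-positive and 57.99 and 58.3 CPM in Trop2-negative cells) and Lgr4 (18.7, 16.6 and 19.3 CPM in stroma, 46.5 and 63.7 CPM in Trop2-positive and 60.8 and 61.2 CPM in Trop2-negative cells) were among 4 that were lower.

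TGF-beta and BMP genes were higher in stroma at the level of ligand, receptor and inhibitor. Of 12 ligand genes tested 10 were higher and none lower, of 12 receptor genes 7 were higher and 1 lower, and all 12 inhibitor genes were higher. Gdf10, a BMP3-like ligand, stood at 268, 357 and 346 CPM in stroma, 0 and 0 CPM in Trop2-positive and 1.04 and 0.175 CPM in Trop2-negative cells, and Bmp2 at 192, 191 and 213 CPM in stroma and 0.6997 to 11.1 CPM in the luminal libraries. Tgfb3 stood at 123, 127 and 134 CPM in stroma and 5.598 to 17.6 CPM in the luminal libraries, and Bmp4, a ligand of urogenital mesenchyme, at 90.4, 73.5 and 91.7 CPM in stroma and 5.69 to 16.8 CPM in the luminal libraries. Fst (follistatin), which traps activins, stood at 168, 224 and 217 CPM in stroma and 0.6997 to 3.199 CPM in the luminal libraries, and Nbl1, a DAN family BMP antagonist, at 745, 913 and 966 CPM in stroma and 28.7 to 49.1 CPM in the luminal libraries. Bmpr1b was the exception among receptors, at 4.02, 6.195 and 4.79 CPM in stroma, 173 and 218 CPM in Trop2-positive and 339 and 326 CPM in Trop2-negative cells. Every stromal value of it lay below every luminal value (log2 difference -5.68 ± 0.18).

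The response side of Hedgehog signalling was wholly stromal in direction. All 11 receptor and target genes were higher in stroma. Gli1, a target and effector of the pathway, stood at 94.9, 84.7 and 109.6 CPM in stroma, 0 and 0.154 CPM in Trop2-positive and 2.22 and 1.05 CPM in Trop2-negative cells. Gli2 had 41.8, 34.7 and 43.9 CPM in stroma and no luminal count, at least 87.7-fold higher. Hhip, a ligand-binding target gene, stood at 93.1, 74.1 and 139 CPM in stroma and 0 to 0.593 CPM in the luminal libraries, and Ptch1, the receptor and target, at 60.3, 49.7 and 83.6 CPM in stroma, 4.53 and 10.9 CPM in Trop2-positive and 20.3 and 15.4 CPM in Trop2-negative cells. The ligand genes were sparse: Ihh stood at 1.19, 0.432 and 0.141 CPM in stroma, 13.9 and 10.3 CPM in Trop2-positive and 0.297 and 1.399 CPM in Trop2-negative cells and was called lower in stroma (log2 difference -2.32 ± 0.70, adjusted p = 0.015), a call lost without stromal library 2 or Trop2-negative library 2 (adjusted p up to 0.16). Shh stood at 0.109, 0.144 and 0 CPM in stroma, 7.998 and 3.69 CPM in Trop2-positive and 0 and 0 CPM in Trop2-negative cells and was not called, and Dhh was too low to be tested. Outside the Trop2-positive libraries Ihh did not exceed 1.399 CPM and Shh 0.144 CPM.

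Most Notch genes were higher in stroma too. Jag1, the ligand gene, stood at 119.9, 112 and 161 CPM in stroma, 6.93 and 6.77 CPM in Trop2-positive and 14.4 and 10.1 CPM in Trop2-negative cells, and 8 of 9 receptor and target genes were higher, with Notch2 at 370.2, 399.7 and 354 CPM in stroma and 67.5 to 192 CPM in the luminal libraries and Heyl at 29.1, 36.7 and 40.6 CPM in stroma and 1.19 to 12.7 CPM in the luminal libraries. Notch1 was lower, at 80.4, 85.4 and 79.8 CPM in stroma, 341 and 261 CPM in Trop2-positive and 212 and 204 CPM in Trop2-negative cells. Jag2, Dll1 and Dll4 were not called.

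**Figure D3:**
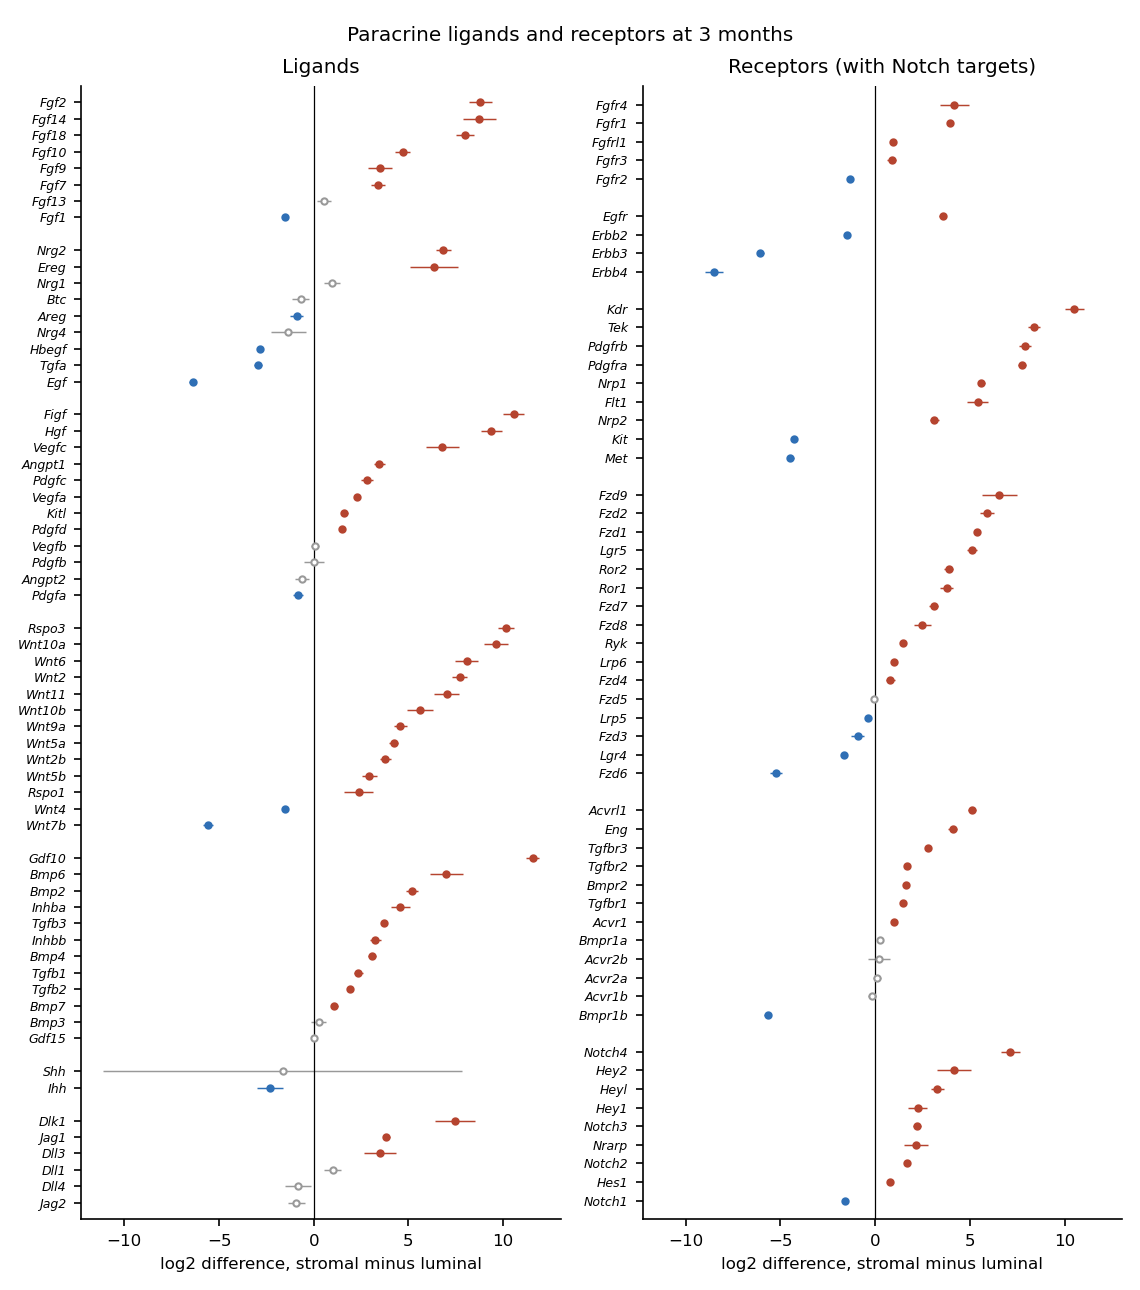
Log2 difference, stromal minus luminal, with its SE as a bar, for the tested ligand genes (left) and receptor genes (right) of the growth factor families, Wnt, TGF-beta and BMP, Hedgehog (ligands) and Notch; red is called higher, blue called lower and open grey not called. Fgf10 and Hgf lie to the right, while Fgfr2, Met and Erbb2 to Erbb4 lie to the left.

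Genes of steroid metabolism and steroid receptors went both ways, with 6 of 12 tested higher in stroma and 3 lower. Srd5a2, the enzyme gene that makes dihydrotestosterone, stood at 47.6, 51.3 and 53.4 CPM in stroma, 0 and 0.308 CPM in Trop2-positive and 1.93 and 0.175 CPM in Trop2-negative cells, and Srd5a1 at 10.97, 9.08 and 9.45 CPM in stroma, 0 and 0.616 CPM in Trop2-positive and 7.27 and 2.799 CPM in Trop2-negative cells. Both were higher in stroma. The oestrogen receptor gene Esr1 stood at 47.3, 48.8 and 44.98 CPM in stroma, 21.7 and 33.5 CPM in Trop2-positive and 23.7 and 32.9 CPM in Trop2-negative cells and was higher (log2 difference 0.75 ± 0.18, adjusted p = 0.0039), Esr2 was not called (log2 difference -1.09 ± 0.51, adjusted p = 0.089), and the glucocorticoid receptor gene Nr3c1 stood at 101, 84.1 and 91.5 CPM in stroma and 25.5 to 40.01 CPM in the luminal libraries. Of 11 androgen-regulated genes tested, most of them known from epithelium, 8 were lower in stroma. Fkbp5, which androgens and glucocorticoids induce in many cell types, stood at 176, 218 and 174 CPM in stroma, 165 and 268 CPM in Trop2-positive and 281 and 232 CPM in Trop2-negative cells and was not called, as was Zbtb16. Ndrg1 was the member that was higher, at 262, 284 and 327 CPM in stroma, 31.7 and 40.2 CPM in Trop2-positive and 84.8 and 53.4 CPM in Trop2-negative cells.

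HOX genes went both ways. Of 18 tested 7 were higher, 6 lower and 5 not called, near the shares over all genes tested (33% higher and 27.6% lower). The genes that were higher in stroma were Hoxa10, Hoxa11, Hoxa13, Hoxb3, Hoxd10, Hoxd11 and Hoxd13, and those that were lower were Hoxb6, Hoxb7, Hoxb8, Hoxb9, Hoxb13 and Hoxd8. Hoxd13, a gene of the urogenital sinus, stood at 82.2, 83.999 and 78.7 CPM in stroma, 20.9 and 32.9 CPM in Trop2-positive and 1.78 and 1.399 CPM in Trop2-negative cells. Hoxb13, which marks the luminal lineage of the prostate, stood at 0.869, 2.02 and 0.987 CPM in stroma, 78.6 and 121 CPM in Trop2-positive and 157 and 119 CPM in Trop2-negative cells. Hoxd13 thus followed stroma over Trop2-positive over Trop2-negative libraries, with no overlap, and Hoxb8 and Hoxb9 ran in the opposite order (Hoxb9 at 1.303, 0 and 0.564 CPM in stroma, 19.1 and 20.3 CPM in Trop2-positive and 59.2 and 51.4 CPM in Trop2-negative cells). Hoxb3 and Hoxb6 were called although their stromal and luminal values overlapped. Without stromal library 2 neither was called, and Hoxb3 was also lost without stromal library 1 or 3 or either Trop2-negative library (adjusted p up to 0.12). Exons of Hoxb3 overlap genes on the opposite strand over 52.9% of their length, and those of Hoxa11 over 35%. The A cluster members gave log2 differences of 1.34 ± 0.23 for Hoxa10, 1.16 ± 0.26 for Hoxa11 and 2.16 ± 0.46 for Hoxa13.

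Transcription factors of mesenchyme and of epithelium each followed their compartment. Of 27 stromal factors 26 were higher, and of 24 epithelial factors tested 19 were lower and 2 higher. Tcf21, a factor of visceral mesenchyme, stood at 154, 187 and 193 CPM in stroma and 0 to 3.71 CPM in the luminal libraries, Ebf1 at 90.6, 73.5 and 71.5 CPM in stroma and 0 to 0.175 CPM in the luminal libraries and Foxf1, a Hedgehog-responsive forkhead gene, at 38.4, 57.3 and 54.01 CPM in stroma and 0 to 0.8898 CPM in the luminal libraries. Srf was the member of the stromal list that was lower, at 94.03, 110.1 and 99.8 CPM in stroma, 245 and 273 CPM in Trop2-positive and 239 and 204 CPM in Trop2-negative cells, while its smooth muscle cofactor Myocd stood at 8.36, 7.35 and 16.1 CPM in stroma and 0 to 0.616 CPM in the luminal libraries. On the epithelial side Foxa1, a forkhead pioneer factor, stood at 2.06, 5.62 and 3.102 CPM in stroma, 408 and 379 CPM in Trop2-positive and 200.1 and 206 CPM in Trop2-negative cells, Grhl2 at 1.52, 1.73 and 1.13 CPM in stroma, 102 and 107 CPM in Trop2-positive and 124 and 113 CPM in Trop2-negative cells and the splicing factor gene Esrp1 at 1.19, 1.297 and 0.423 CPM in stroma, 107 and 126 CPM in Trop2-positive and 105 and 108 CPM in Trop2-negative cells. Klf4 and Creb3l1 went against their list: Klf4 stood at 1456, 1722 and 1954 CPM in stroma, 271 and 319 CPM in Trop2-positive and 201 and 179 CPM in Trop2-negative cells, and Creb3l1 at 123, 135 and 114 CPM in stroma, 3.33 and 1.69 CPM in Trop2-positive and 6.08 and 7.35 CPM in Trop2-negative cells. Sox9 was lower in stroma yet present there, at 104, 105 and 132 CPM in stroma, 978 and 741 CPM in Trop2-positive and 337 and 360.2 CPM in Trop2-negative cells. Gata2 was not called, at 134, 159.6 and 177 CPM in stroma, 128 and 140.5 CPM in Trop2-positive and 239 and 253 CPM in Trop2-negative cells.

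Genes that hold epithelial cells together were lower in stroma. Of 21 genes of adherens and tight junctions 19 were lower and 1 higher, of 15 genes of cell polarity all 15, of 15 keratin genes 11 and of 15 desmosome and hemidesmosome genes 11. Cdh1 (E-cadherin) stood at 6.298, 25.8 and 13.96 CPM in stroma, 3100.3 and 2574 CPM in Trop2-positive and 1265 and 1297 CPM in Trop2-negative cells, Epcam at 4.67, 9.94 and 4.65 CPM in stroma, 1546 and 1245 CPM in Trop2-positive and 578 and 686 CPM in Trop2-negative cells and Cldn7, a tight junction claudin, at 1.63, 1.73 and 1.69 CPM in stroma, 415 and 306 CPM in Trop2-positive and 163 and 171 CPM in Trop2-negative cells. Ocln (occludin) stood at 1.19, 1.87 and 1.69 CPM in stroma and 196 to 359.8 CPM in the luminal libraries, and Crb3, an apical polarity protein gene, at 0, 0.144 and 0.705 CPM in stroma and 29.9 to 61.7 CPM in the luminal libraries. The nectin gene Pvrl1 was the junction gene that was higher in stroma, at 58.7, 70.02 and 60.8 CPM in stroma and 9.97 to 26.8 CPM in the luminal libraries. Ctnnb1 (beta-catenin) stood at 338, 395 and 359.9 CPM in stroma, 784 and 747 CPM in Trop2-positive and 407 and 364 CPM in Trop2-negative cells, with a log2 difference of -0.58 ± 0.11 and overlap with Trop2-negative values. Cdh11, a mesenchymal cadherin gene, was higher in stroma, at 239.8, 233 and 314 CPM in stroma and 1.85 to 6.08 CPM in the luminal libraries, as was the intermediate filament gene Vim (vimentin) at 1851, 2085 and 2415 CPM in stroma and 1.69 to 8.53 CPM in the luminal libraries.

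The factors Zeb1, Zeb2, Snai1 and Twist1, known in other tissues for binding E-box sequences in the promoters of epithelial genes, were higher in stroma. Zeb1 stood at 301, 284 and 323 CPM in stroma, 3.73 and 3.08 CPM in Trop2-positive and 2.97 and 1.75 CPM in Trop2-negative cells, Zeb2 at 195, 217 and 217 CPM in stroma and 0.8898 to 2.93 CPM in the luminal libraries, Snai1 at 25.3, 30.7 and 28.8 CPM in stroma and 0 to 0.462 CPM in the luminal libraries and Twist1 at 33.3, 30.8 and 33.1 CPM in stroma and 0 to 0.525 CPM in the luminal libraries. To show where such letters lie, the 250 bases before the RefSeq start of 4 luminal genes that hold them are printed 5′ to 3′ on the strand of the gene (RefSeq sequence, GRCm38.p6), with the E-box CACCTG or its reverse complement CAGGTG in capitals. They lie at chr17:87635729-87635978 (Epcam, plus strand), chr15:102004343-102004592 (Krt8, minus strand), chr15:102027966-102028215 (Krt18, plus strand) and chr11:69965171-69965420 (Cldn7, plus strand). GENCODE places the start of Krt8, Krt18 and Cldn7 further upstream, so that by its gene bounds the Krt8 and Krt18 stretches lie partly, and the Cldn7 stretch wholly, within the gene.
Epcam: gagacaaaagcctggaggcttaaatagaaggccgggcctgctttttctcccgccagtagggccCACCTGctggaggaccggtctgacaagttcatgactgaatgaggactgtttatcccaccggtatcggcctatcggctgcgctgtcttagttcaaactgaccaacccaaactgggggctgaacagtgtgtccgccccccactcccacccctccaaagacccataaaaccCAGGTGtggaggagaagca
Krt8: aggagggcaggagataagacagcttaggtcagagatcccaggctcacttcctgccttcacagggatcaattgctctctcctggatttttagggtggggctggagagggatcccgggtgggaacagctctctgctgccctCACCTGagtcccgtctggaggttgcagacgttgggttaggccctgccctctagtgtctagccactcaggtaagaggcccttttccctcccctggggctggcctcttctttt
Krt18: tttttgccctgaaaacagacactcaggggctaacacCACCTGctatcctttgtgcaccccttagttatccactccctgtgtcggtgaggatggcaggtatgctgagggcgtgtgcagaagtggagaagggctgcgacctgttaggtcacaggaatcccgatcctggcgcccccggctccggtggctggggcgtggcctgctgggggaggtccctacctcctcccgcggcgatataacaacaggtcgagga
Cldn7: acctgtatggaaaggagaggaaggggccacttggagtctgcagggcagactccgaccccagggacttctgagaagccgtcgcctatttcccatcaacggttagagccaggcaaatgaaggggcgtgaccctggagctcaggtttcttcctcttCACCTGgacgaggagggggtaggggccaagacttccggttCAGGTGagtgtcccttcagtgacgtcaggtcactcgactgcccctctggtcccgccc
Counted from the start, the motifs begin at bases -187 and -19 of Epcam, -111 of Krt8, -214 of Krt18 and -97 and -57 of Cldn7. Either form of the motif occurred in 17.2% of all 32851 promoters of that length. Counted per gene, with a match at any of its starts, it occurred in 18.97% of the 10776 tested genes with a promoter. By the same count it occurred in 24.3% of the 3032 genes that were lower in stroma. It occurred in 16.3% of the 3494 that were higher and in 17.3% of the 4250 that were not called. Counts in 9 gene lists were taken over the members with a promoter in the table. On the epithelial side it was held by 5 of 6 luminal marker genes, 6 of 9 keratin genes, 6 of 9 polarity genes, 5 of 14 adherens and tight junction genes and 1 of 4 desmosome and hemidesmosome genes. On the stromal side it was held by 2 of 7 fibroblast genes, 1 of 9 small leucine-rich proteoglycan genes, 1 of 9 smooth muscle genes and 0 of 8 fibrillar collagen genes. The motif was chosen with the expression values known, and a match is a run of letters, not a bound site.

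Keratins showed a further layer within the luminal arm. Krt8, Krt18 and Krt19 were high in both sorts, with Krt18 at 8.904, 17.1 and 21.6 CPM in stroma, 2465 and 2405 CPM in Trop2-positive and 1926 and 2169.9 CPM in Trop2-negative cells. Krt4, Krt7 and Krt6a stood mainly in Trop2-positive cells, Krt4 at 0, 2.45 and 0.987 CPM in stroma, 445 and 283 CPM in Trop2-positive and 2.08 and 2.97 CPM in Trop2-negative cells, where Trop2-negative values overlapped stroma. Krt6a had no stromal count, and was at least 153-fold lower in stroma against a floor of 3 counts per library. The basal keratin genes Krt5 and Krt14 were low throughout: Krt5 did not exceed 2.46 CPM in any library, Krt14 stood at 0.543, 2.45 and 2.26 CPM in stroma, 15.9 and 17.5 CPM in Trop2-positive and 0.445 and 0 CPM in Trop2-negative cells, and neither was called.

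Transcripts of prostate secretory proteins were lower in stroma, for all 12 genes tested (median log2 difference -5.71). Their summed level was 310 to 667 CPM in stroma, 17020 and 36540 CPM in the Trop2-positive and 85400 and 92400 CPM in the Trop2-negative libraries. They remained 12 of 12 without Trop2-negative library 2. Sbp stood at 79.6, 281 and 377 CPM in stroma, 11396 and 27718 CPM in Trop2-positive and 68534 and 72666 CPM in Trop2-negative cells. Both Trop2-negative values lay above both Trop2-positive ones. Spink3, a trypsin inhibitor, stood at 6.73, 10.5 and 13.3 CPM in stroma, 573 and 1098 CPM in Trop2-positive and 1878 and 1910.1 CPM in Trop2-negative cells, and Msmb at 5.75, 17.3 and 5.36 CPM in stroma, 145 and 638 CPM in Trop2-positive and 904 and 463 CPM in Trop2-negative cells. Svs2 and Svs5, which encode clot proteins of the seminal vesicle, stood at 106, 178 and 56.8 CPM in stroma, 3567 and 5991 CPM in Trop2-positive and 49834 and 54354 CPM in Trop2-negative cells for Svs2 and 24.1, 40.9 and 14.2 CPM in stroma, 799 and 1496 CPM in Trop2-positive and 11639 and 13139 CPM in Trop2-negative cells for Svs5. Both Trop2-negative libraries held them at like levels, unlike Svs1 and Svs6. Among the 12 largest decreases were also Wfdc15b (12.2 to 85.04 CPM in luminal libraries and no stromal count, at least 113-fold lower), Mug1 (a protease inhibitor, 15.1 to 38.8 CPM and no stromal count, at least 65.6-fold lower), Foxi1 (0.434, 0.144 and 0.141 CPM in stroma and 28.7 to 173 CPM in the luminal libraries) and Cwh43 (0.109, 0.576 and 0 CPM in stroma and 68.3 to 95.97 CPM in the luminal libraries). The others were Svs4 at 1.85, 3.03 and 0 CPM in stroma, 498 and 497 CPM in Trop2-positive and 478 and 1827 CPM in Trop2-negative cells, and Cyp4a12a, Slco1a5, Ltf, Pdzk1ip1 and Macc1, each with 3 or fewer counts in all stromal libraries.

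The machinery of secretion was lower in stroma by smaller steps. Of 20 genes of entry into the secretory pathway 15 were lower and none higher, and of 20 genes of the unfolded protein response 16 and none, with median log2 differences of -0.87 and -0.71. Spcs2 (signal peptidase) stood at 56.03, 58.9 and 49.9 CPM in stroma, 106 and 167 CPM in Trop2-positive and 213 and 195 CPM in Trop2-negative cells, Herpud1 at 161, 131 and 131 CPM in stroma, 352 and 487 CPM in Trop2-positive and 590.4 and 645 CPM in Trop2-negative cells and Hspa5 (BiP) at 2339.8, 2161 and 1351 CPM in stroma, 2608 and 3378 CPM in Trop2-positive and 3756 and 3757 CPM in Trop2-negative cells. Stromal library 3 was lowest of all 7 libraries for Hspa5, and the difference was called (log2 difference -0.78 ± 0.20, adjusted p = 0.0054) but not with limma on TPM. Atf4, Atf6 and Ddit3 were not called. With TPM in place of scaled counts, which moved the median of all genes from 0.09 to 0.33, 10 of the unfolded protein response genes were lower and 1 higher.

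Mitochondrial and ribosomal genes differed to unlike degrees. Of 19 genes of oxidative phosphorylation 17 were lower in stroma, with a median of -0.76. Cox4i1 stood at 60.7, 63.97 and 68.95 CPM in stroma, 149 and 180.2 CPM in Trop2-positive and 145 and 146 CPM in Trop2-negative cells, and Atp5b at 179, 210.1 and 217 CPM in stroma, 337 and 427 CPM in Trop2-positive and 393 and 390.5 CPM in Trop2-negative cells. Of 30 ribosomal protein genes 11 were lower, none was higher and the median was -0.20, but in TPM 6 were lower, 10 higher and the median was 0.08, so that list had no direction that held across scalings. Of 15 glycolysis genes 7 were lower and 3 higher. Pfkp, the platelet form of phosphofructokinase, stood at 153, 178 and 163 CPM in stroma, 10.7 and 12.8 CPM in Trop2-positive and 6.08 and 6.82 CPM in Trop2-negative cells while the liver form Pfkl stood at 18.1, 22.3 and 19.9 CPM in stroma, 60.8 and 53.5 CPM in Trop2-positive and 57.1 and 55.3 CPM in Trop2-negative cells. Hk2 was also higher in stroma, and the glucose transporter gene Slc2a1 lower.

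Inflammatory signal genes were mostly higher in stroma, where the pan-leukocyte genes were near 0. Of 17 chemokine genes tested 11 were higher and 3 lower, of 14 complement genes 11 and 2, and of 19 interleukin and receptor genes 15 and 2. Cxcl12, which guides haematopoietic cells, stood at 207, 227 and 255 CPM in stroma and 0 to 2.46 CPM in the luminal libraries, Ccl2 (which draws in monocytes) at 224, 351 and 363 CPM in stroma and 0 to 1.33 CPM in the luminal libraries and Csf1 (the macrophage growth factor) at 795, 1151 and 1056 CPM in stroma and 8.398 to 19.6 CPM in the luminal libraries. Complement component C3 stood at 2971, 4526 and 2759 CPM in stroma, 8.66 and 6.001 CPM in Trop2-positive and 1.78 and 2.099 CPM in Trop2-negative cells. All 3 stromal values lay far above the luminal ones, with a log2 difference of 9.82 ± 0.27 (adjusted p = 1.00e-09). Il6 stood at 99.5, 135 and 171 CPM in stroma and 0.175 to 2.399 CPM in the luminal libraries and Il33 at 114, 112 and 122 CPM in stroma and 0.267 to 1.63 CPM in the luminal libraries. The epithelial chemokine genes Cxcl16 and Cxcl17 were lower in stroma, Cxcl17 at 0.651, 0.144 and 0 CPM in stroma, 61.3 and 61.2 CPM in Trop2-positive and 4.89 and 4.55 CPM in Trop2-negative cells.

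Interferon-stimulated genes were higher in stroma for 15 of 17 tested, with a median of 1.58. Ifit1 stood at 76.6, 107 and 218 CPM in stroma, 16.7 and 4.001 CPM in Trop2-positive and 4.15 and 7.697 CPM in Trop2-negative cells and Isg15 at 20.3, 29.97 and 38.6 CPM in stroma, 7.06 and 5.08 CPM in Trop2-positive and 3.41 and 2.45 CPM in Trop2-negative cells. Stromal library 3 held the most of both, and without it 11 of the 17 were called. Of 21 immediate early and heat shock genes 14 were higher and 2 lower. Fos stood at 2151, 1782 and 2281 CPM in stroma, 338 and 401 CPM in Trop2-positive and 329.5 and 417 CPM in Trop2-negative cells, and Egr1 at 2840.1, 2503 and 2916 CPM in stroma, 519.9 and 572 CPM in Trop2-positive and 428 and 400.4 CPM in Trop2-negative cells. Atf3 went the other way, at 694, 719 and 1090.2 CPM in stroma, 1312 and 1572 CPM in Trop2-positive and 1697 and 1905 CPM in Trop2-negative cells. Atf3 is a stress-induced transcription factor gene, and Fos and Egr1 are induced by growth factors and serum. Of 9 genes of MHC class I and antigen processing 4 were higher in stroma, 2 were lower and 3 were not called, against 33% higher and 27.6% lower over all genes tested. B2m, the light chain of MHC class I, was among the lower ones, at 426, 499.7 and 573 CPM in stroma, 1339 and 1259 CPM in Trop2-positive and 1019 and 1042 CPM in Trop2-negative cells, and the summed level of 7 MHC class II genes was 9.99 to 18.33 CPM in stroma and 8.771 to 13.05 CPM in luminal cells.

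Imprinted growth genes, many of them known from fetal tissue, were higher in stroma for 11 of 11 tested. Meg3 (a long noncoding RNA) stood at 275, 193 and 170.1 CPM in stroma and 0.148 to 3.39 CPM in the luminal libraries, Ndn (necdin) at 58.3, 61.1 and 69.7 CPM in stroma and 0 to 0.175 CPM in the luminal libraries, Peg3 at 60.4, 44.1 and 34.1 CPM in stroma and 0.666 to 3.71 CPM in the luminal libraries and Igf2 at 19.002, 15.99 and 16.8 CPM in stroma and 0.533 to 1.78 CPM in the luminal libraries. Igf2 shares 61.2% of its 50-base windows with an overlapping gene model, so its level is uncertain. Plagl1 gave the smallest difference of the group, at 92.7, 100.1 and 88.4 CPM in stroma, 28.5 and 23.5 CPM in Trop2-positive and 44.9 and 53.7 CPM in Trop2-negative cells. Cell cycle genes went both ways, with 3 of 16 higher and 4 lower, both below the shares over all genes tested (33% and 27.6%). Mki67, a marker of cycling cells, was lower in stroma, at 14.01, 10.4 and 19.3 CPM in stroma, 19.7 and 39.5 CPM in Trop2-positive and 82.5 and 70.5 CPM in Trop2-negative cells, and Pcna, the replication clamp gene, was higher, at 68.4, 72.6 and 79.8 CPM in stroma, 26.1 and 35.7 CPM in Trop2-positive and 33.1 and 32.7 CPM in Trop2-negative cells. Cdkn1c, an imprinted cell cycle inhibitor, stood at 54.8, 54.9 and 53.6 CPM in stroma and 4.53 to 10.7 CPM in the luminal libraries.

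Guidance cues of axons and vessels were also among stromal transcripts, with 12 of 22 higher and 5 lower. Slit3 stood at 819.6, 1098 and 974 CPM in stroma and 0.933 to 5.64 CPM in the luminal libraries, Slit2 at 76.3, 70.6 and 79.2 CPM in stroma and 1.38 to 2.52 CPM in the luminal libraries and Robo2, a receptor for both, at 171, 134 and 211 CPM in stroma and 0.154 to 5.47 CPM in the luminal libraries. Of 16 ephrin and Eph receptor genes 10 were higher and 4 lower. Epha2 stood at 27.9, 37.2 and 34.1 CPM in stroma, 464 and 405 CPM in Trop2-positive and 61.99 and 45.5 CPM in Trop2-negative cells and its ligand gene Efna1 at 2.28, 1.73 and 4.09 CPM in stroma, 92.4 and 69.2 CPM in Trop2-positive and 64.7 and 71.2 CPM in Trop2-negative cells, both lower in stroma, and Ephb2 at 53.7, 58.1 and 43.7 CPM in stroma and 6.798 to 7.697 CPM in the luminal libraries.

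Set against each luminal sort alone, similar numbers of genes were called. Against the Trop2-positive libraries 4346 genes were higher (29.9%) and 3683 lower (25.4%), and against the Trop2-negative libraries 4256 were higher (29.3%) and 3764 lower (25.9%). Both comparisons share the 3 stromal libraries, so their values are only set side by side. Ly6a (the progenitor antigen Sca-1) stood at 171, 195 and 211 CPM in stroma, 105 and 113 CPM in Trop2-positive and 8.75 and 10.7 CPM in Trop2-negative cells; its differences were 0.82 ± 0.14 (adjusted p = 5.04e-04) and 4.31 ± 0.18 (adjusted p = 2.00e-08). Cd44, the hyaluronan receptor gene, stood at 198, 247 and 249 CPM in stroma, 304 and 212 CPM in Trop2-positive and 23.6 and 15.7 CPM in Trop2-negative cells. It was called higher in stroma over both sorts with equal weight, but against the Trop2-positive libraries alone the difference was -0.16 ± 0.19 (adjusted p = 0.51) and against the Trop2-negative ones 3.55 ± 0.24 (adjusted p = 5.79e-07). Thbs1, which encodes a matricellular activator of TGF-beta, stood at 3592, 6176 and 6531 CPM in stroma, 2446 and 1663 CPM in Trop2-positive and 163 and 129 CPM in Trop2-negative cells; Trop2-positive cells again lay nearer to stroma.

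The 3 stromal libraries were alike for fibroblast genes and differed for muscle and nerve genes. All 12 smooth muscle genes were highest in library 3, where their median ratio to the mean of libraries 1 and 2 was 2.02. Over the 10695 genes with at least 5 CPM in stroma the same ratio was 1.01, and 37.3% of them were highest in library 3. For the 12 fibroblast genes the ratio was 1.10. Of 5 Schwann cell and neuron genes at that level 5 were highest in library 1, including Tubb3 at 21.3, 11.8 and 8.88 CPM and Snap25 at 23.3, 6.195 and 5.64 CPM. Without stromal library 1 Snap25 was not called (adjusted p = 0.06). Without stromal library 3 all 12 smooth muscle genes were still called, with a median log2 difference of 6.47 in place of 6.97. Among the genes named for their spread between stromal libraries, H2-L came first at 7.06, 106 and 107 CPM, and Tnfaip2 at 34.4, 88.2 and 69.7 CPM and Adamts4 at 334, 659 and 854 CPM were also lowest in library 1. H2-L belongs to a family of near-identical MHC class I genes among which reads are divided by estimate.

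**Figure D4:**
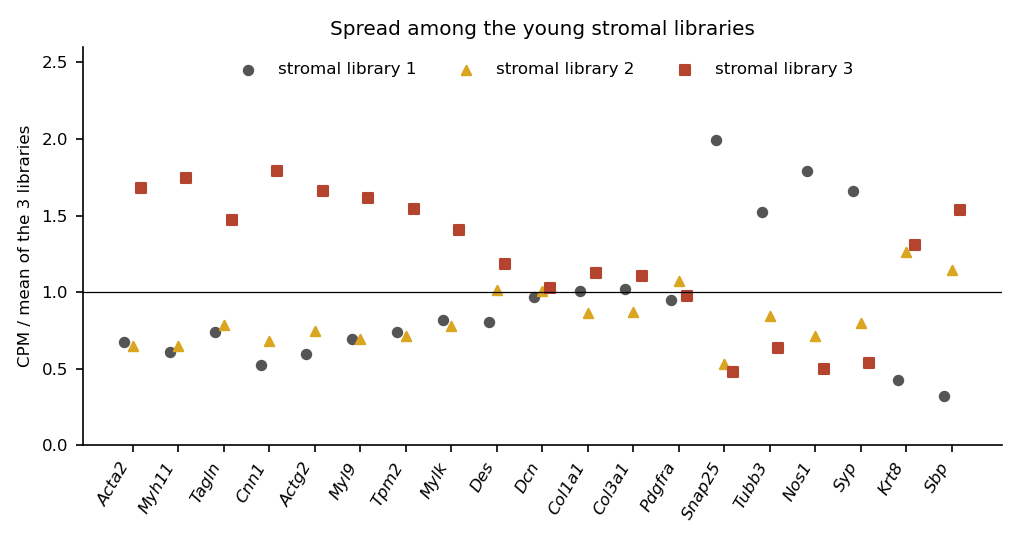
Level of 19 genes in each young stromal library, divided by the mean of the 3 stromal libraries (linear axis; the line marks 1). Smooth muscle genes are highest in library 3, nerve genes in library 1, and the fibroblast genes Dcn, Col1a1, Col3a1 and Pdgfra stay near 1.

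At 24 months the comparison of stroma with luminal cells called similar numbers. There 4874 of 14792 genes tested were higher in stroma (33%) and 4174 lower (28.2%). Of the 4794 genes higher at 3 months 4026 were also called higher at 24 months, which is 84.0% of the young and 82.6% of the old calls, and 6 were called lower. Of the 4014 genes lower at 3 months 3339 were also called lower, 83.2% of the young and 80.0% of the old calls, and 9 were called higher. These ages share no libraries.

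The difference itself changed with age for 158 of 15255 genes tested (1.04%), by the interaction term of a fit to all 14 libraries. It was larger (more stromal) at 24 months for 70 genes and smaller for 88. The levels that follow are CPM scaled over all 14 libraries. S1pr3, a sphingosine-1-phosphate receptor gene, was measured at 83.5, 107 and 132 CPM at 3 months and 120.1, 99.6 and 108 CPM at 24 months in stroma. In Trop2-positive cells it stood at 1.95 and 1.296 CPM young and 0 and 0 CPM old, and in Trop2-negative cells at 1.69 and 3.28 CPM young and 0 and 0.4496 CPM old. Stromal values of both ages overlapped and luminal values did not, and the difference changed by 5.05 ± 0.80 on the log2 scale (adjusted p = 0.0095). Adamtsl3, which encodes a matrix protein, had 27.3, 21.5 and 17.98 CPM in young and 23.4, 25.5 and 27.2 CPM in old stroma, a luminal maximum of 3.615 CPM at 3 months and 0.149 CPM at 24 months, and a change of 5.80 ± 0.85 (adjusted p = 0.0066). For both genes the old luminal values lay at or under the floor of 3 counts or close to it, so the size of the change depends on counts near 0.

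Antxr1, a collagen-binding receptor gene, went the other way. It stood at 348, 374 and 359 CPM in young and 247, 298 and 268 CPM in old stroma. In Trop2-negative cells it stood at 10.2 and 14.8 CPM young and 95.7 and 90.2 CPM old, and in Trop2-positive cells at 0 and 1.94 CPM young and 6.86 and 21.6 CPM old. All old luminal values lay above the young values of the same sort, and the difference fell by 3.85 on the log2 scale (adjusted p = 0.014). Mapt (tau, a microtubule protein) stood at 4.31 and 4.92 CPM in young and 44.8 and 24.4 CPM in old Trop2-negative cells. Among members of the gene lists, Pfkp gave the smallest adjusted p: 153, 183 and 170.4 CPM in young and 113, 117 and 138 CPM in old stroma, 11.1 and 13.4 CPM and 17.4 and 25.6 CPM in Trop2-positive and 6.31 and 7.11 CPM and 53.9 and 35.96 CPM in Trop2-negative cells, a change of -2.24 ± 0.24 (adjusted p = 2.02e-04).

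A few basement membrane genes and Gsn, which were singled out after their values were seen, had a smaller stromal excess at 24 months. By the interaction term 2 of 11 basement membrane collagen and nidogen genes (Col4a5 and Hspg2) and 1 of 11 laminin genes (Lamc1) changed with age, while Col4a1, Col4a3, Nid1 and Lama2 were among those not called. Col4a5 stood at 504, 508 and 602 CPM in young and 241, 313 and 292 CPM in old stroma, Hspg2 (perlecan) at 1929, 2113 and 2268 CPM and 1344, 1481 and 1048 CPM, Lamc1 at 1302, 1729.8 and 1479.6 CPM and 776, 995 and 594 CPM, and Gsn at 17095, 21869 and 22435 CPM and 7974, 13272 and 9154 CPM. In all 4 the old stromal values lay below the young ones without overlap. The same held for Col4a1, Col4a3 and Lama2, so a lower stromal level was not particular to the called genes. Col4a1 stood at 1423, 2059 and 1712 CPM in young and 722, 800 and 542 CPM in old stroma. Its luminal mean was 19.3 CPM at 3 months and 7.21 CPM at 24 months. In contrast Hoxa11 stood at 17.9, 16.6 and 22.997 CPM in young and 24.8, 30.5 and 29.1 CPM in old stroma, and its difference was larger at 24 months (2.30 ± 0.40, adjusted p = 0.012). The number of genes with a changed difference moved with the libraries and the tool. It ran from 63 without young stromal library 2 to 397 without young Trop2-positive library 2, and to 406 with DESeq2. With a block by replicate number it fell to 6, though these numbers are not stated to pair the libraries.

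**Figure D5:**
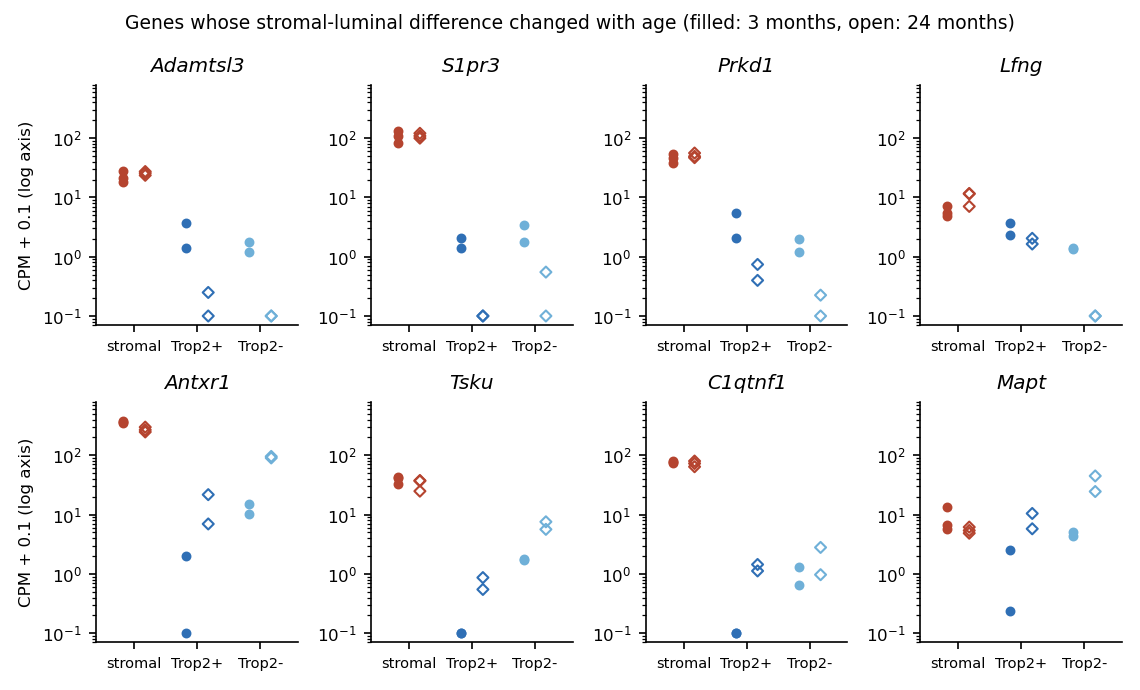
Levels of 8 genes whose difference between stroma and luminal cells changed with age, as CPM + 0.1 on a log axis, 1 point per library, at 3 months (filled) and 24 months (open). In Antxr1 and Mapt the old luminal points lie above the young points of the same sort, and in S1pr3 and Adamtsl3 below them.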

How the data were processed

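RNA of the sorted cells came from RNeasy Mini columns and was sequenced from KAPA Stranded mRNA-Seq libraries on an Illumina HiSeq instrument, per the labels' protocols. The submitters' processing notes name bcl2fastq 2.17, Bowtie2 2.1.0, RSEM 1.2.15 and the mouse build mm10 (GRCm38). The deposited expected counts are RSEM's estimates per gene, which divide reads that match several genes, and the deposited TPM values are the same estimates corrected for length and scaled per library, both per the file headers. The strand setting of the counting is not given in the sources used here. A gene and an antisense partner therefore cannot be told apart.

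Expected counts were rounded to whole numbers. Genes with low counts were filtered with filterByExpr, libraries were scaled by TMM, and edgeR 4.0.16 (R 4.3.3) was fitted with robust quasi-likelihood to the 7 young libraries in 3 groups, with the mean of the 2 luminal sorts as the luminal arm. The age difference was the interaction contrast in a fit of all 14 libraries in 6 groups, and the old contrast came from a fit of the 7 old libraries. No replicate block was used. Alternatives were RLE scaling, library totals, DESeq2 1.42.0, limma 3.58.1 on log2(TPM + 1), no filter, a replicate block, all libraries in 1 fit, 1 luminal group, glmTreat, each library left out, and, added after seeing the data, structural RNAs left out. Gene positions are from GENCODE vM21 (GRCm38).

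The gene groups and the 85 lists (1047 symbols, of which 2 were absent from the table, 7 were matched by another name and 942 members were tested) were chosen with earlier results of these data known. Candidates for naming were the 12 largest increases and decreases with at least 20 CPM in the higher arm and no overlap. From each list came the 6 called members of smallest adjusted p, the 4 of highest CPM and 3 not called. Added to these were all tested ligands, receptors, inhibitors and HOX genes, and the 8 highest TPM values per arm. The 6 largest age changes each way and the 8 widest stromal spreads completed the set. Not all of these candidates are given in the text, and no further rule for that choice was set. Atf3, Crb3, Cxcl16, Cxcl17, Ddit3, Foxf1, Itgb6, Lama5, Mmp7, Myocd, Ndrg1, Pcolce2, Pvrl1, Robo2, Snai1 and Twist1, and the age changes of Pfkp, Col4a5, Hspg2, Lamc1 and Gsn, were picked with their values in view. A further table of scaled values named in the labels was not used here. Results for some genes are not reported here.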

Additional observations from a re-analysis of the deposited data

Results flagged for a closer look

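The difference between stroma and luminal cells was not the same at 3 and 24 months for 158 genes, by the interaction term of edgeR's fit to all 14 libraries. The named genes with a larger stromal excess at 24 months were Adamtsl3 (change of 5.80 on the log2 scale), S1pr3 (5.05), Rmnd1 (4.55), Nek2 (4.50), Lfng (4.27) and Prkd1 (3.68). Those with a smaller one were Fam167a (-4.62), Antxr1 (-3.85), Tsku (-3.82), Best1 (-3.74), C1qtnf1 (-3.59) and Mapt (-3.47). Rmnd1 and Nek2 had no count in either old Trop2-negative library: Rmnd1, a mitochondrial translation gene, stood at 11.1 and 9.48 CPM in those cells at 3 months, and Nek2, a mitotic kinase gene, at 8.16 and 3.83 CPM. Prkd1, a protein kinase D gene, had 46.4, 37.8 and 53.1 CPM in stroma at 3 months and 46.6, 55.8 and 49.02 CPM at 24 months. Tsku, which encodes a small leucine-rich secreted protein, had 1.69 and 1.64 CPM in Trop2-negative cells at 3 months and 7.46 and 5.54 CPM at 24 months.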

How the results depend on the processing

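The counts of genes called between stroma and luminal cells at 3 months stayed within 1.5 times of 8808 (both sorts), 8029 (Trop2-positive) and 8020 (Trop2-negative) under RLE scaling, library totals, DESeq2, limma on TPM, no low-count filter, all 14 libraries in 1 fit, 1 luminal group and structural RNAs left out. Only the rule that a difference had to exceed 2-fold (glmTreat) moved the first of them, to 4455. Leaving out 1 library gave 7443 to 9876, 6785 to 8996 and 6329 to 7013. With limma on log2(TPM + 1) 67.0% of the calls were higher in stroma, against 54.4% with TMM. Against Trop2-negative cells that share was 72.3%, against 53.1%.

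The age difference was less settled than that. Its 158 genes became 406 with DESeq2 and 384 with limma on TPM, of which 9.90% were more stromal at 24 months against 44.3% with TMM. With library totals 29.6% of 186 genes were so. Without 1 library the count ran from 63 (young stromal library 2) to 397 (young Trop2-positive library 2). It was 85 without young stromal library 1, 98 without young stromal library 3, 97 without young Trop2-negative library 1, 81 and 88 without old stromal library 1 and 3, and 241 without old Trop2-negative library 2. The cause was not tested.

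The replicate numbers are not stated to pair the libraries, and same-numbered libraries did not deviate together (r from -0.0873 to 0.0014 over 11022 genes). With the replicate block 7120, 6337 and 6350 genes were called in the 3 young comparisons and 6 for the age difference. Over 246 named genes and 4176 settings no direction reversed where the main or the alternative fit called the gene. A change of sign in a gene called in neither fit was not counted. The call was lost in 86 settings in 29 genes and gained in 10 settings. With the 4 luminal libraries as 1 group, genes that differ between the sorts (Cd44, Ly6a, Thbs1, Hoxa13, Hoxd10 and Srd5a1) were no longer called. A floor of 3 counts limits what can be said of genes near 0.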
